A study of Mus musculus with 6 samples.

Results

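Metalloproteinases, plasminogen activators and their inhibitors were read in crypt epithelium, the cells that line the pits of the mouse intestinal wall. The genes were Mmp10, Mmp13 and Mmp15 (metalloproteinases), Plau, Plaur and Plat (plasminogen activators and a receptor) and Timp1, Timp2 and Timp3 (metalloproteinase inhibitors). They were chosen by gene symbol, and all 9 were found among the 24930 genes of the deposited table. RNA was sequenced from 3 β-cateninGOF/+ libraries, carrying 1 mutant β-catenin allele, and from 3 Control libraries. All 6 libraries, mutant and control, are labelled day 4 after induction. The table's column names describe the first group as heterozygous for an exon change; the groups are called mutant and control from here. The labels used here state no strain, age or sex, no driver or agent of the induction, and no animal for any library. The p-values therefore measure spread among libraries, part of which may be technical.

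Secreted metalloproteinases cut collagens and other matrix proteins. They are made as inactive precursors and are blocked by the TIMP proteins, which bind the active enzyme. Plasminogen activators cut circulating plasminogen into plasmin, a broad protease that dissolves fibrin and can also activate metalloproteinase precursors; the receptor encoded by Plaur holds urokinase at the cell surface. In the gut these proteases are known mainly from wound healing, inflammation and tumour invasion. Much of their expression there comes from fibroblasts and leukocytes, and epithelial cells at wound edges also make some of them.

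Promoter sequences from RefSeq (GRCm38.p6) were at hand for 7 of the 9 genes, all but Plau and Plat. They are shown because AP-1, the Fos and Jun transcription factor dimer, is known to act on promoters of collagenase, stromelysin and urokinase receptor genes. The windows ran from 250 bases before to 50 bases after the transcription start and were searched on both strands. The AP-1 motif TGANTCA was present once each in Mmp10, Mmp13 and Plaur and had no match in the windows of the other 4 genes, Mmp15, Timp1, Timp2 and Timp3. Of 32851 promoter windows of the same length, 7.81% held it. The 100 bases before the start of these 3 genes follow, 5′ to 3′, with the AP-1 match in capitals.
Mmp10 (chr9:7502242-7502341, plus strand): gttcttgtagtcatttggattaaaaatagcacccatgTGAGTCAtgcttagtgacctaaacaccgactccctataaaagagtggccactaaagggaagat
Mmp13 (chr9:7272414-7272513, plus strand): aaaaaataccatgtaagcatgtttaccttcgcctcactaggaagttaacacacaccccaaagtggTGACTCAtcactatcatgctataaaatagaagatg
Plaur (chr7:24462383-24462482, plus strand): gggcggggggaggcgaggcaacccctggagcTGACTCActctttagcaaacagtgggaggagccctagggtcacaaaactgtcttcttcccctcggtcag

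The matches began 63 bases before the start in Mmp10, 35 in Mmp13 and 69 in Plaur. Mmp10 and Mmp13 also held a TATAAA box, found in 13.6% of all windows, and it did not overlap the AP-1 match. The TCF/LEF letters CTTTGAT or CTTTGTT, the motif of the factors that work with β-catenin, were found in 0 of the 7 windows and in 9.33% of all windows. A match describes letters in a window and is not evidence of binding.

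The values are normalized units per gene. Among low genes they fell in exact steps that shrank with transcript length, so units can be compared between genes as a level per length. The steps gave the reads per unit of each library relative to control replicate 1: 0.996, 1.35 and 0.886 in mutant replicates 1 to 3, and 1, 1.03 and 1.42 in control replicates 1 to 3. With these factors the values of 8 members were whole multiples of a common step within 0.005 reads in every library. That step multiplied by the longest coding transcript's length lay between 71.7 and 84.5, against a median of 73.6 (quartiles 71.4 and 77.4) over 337 low genes with a single annotated transcript. The multiples are given below as reads. The method, its tolerance and a length limit of 20% around the median, widened to take in Mmp15, were set after the data had been seen. Timp1 gave no common step, and its reads are approximate.

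Of the 11837 genes that averaged 1 unit or more, limma called 0 higher (0%) and 2 lower (0.0169%) in mutant crypts at an adjusted p under 0.05. No member was among them. Only 2 members, Mmp15 and Plaur, reached that mean and were tested. Plaur did so through the mutant libraries alone, so its test is not independent of its direction. The other 7 had means under 1 unit and are described by values. In 5 members (Mmp10, Plau, Plaur, Plat and Timp1) all 3 mutant values lay above all 3 control values, and in 0 members they lay below. For Mmp10 and Timp1 the separation rested on very few reads, given below. Among genes averaging 1 unit or more, 8.34% were apart and higher and 8.37% apart and lower. Among the 4605 genes averaging 0.05 to 1 unit, a range chosen after the values were seen because it holds the other members, 10.3% were apart and higher and 5.08% apart and lower. The members were chosen with earlier results known, so this count is a description. Without a filter on low values, limma called 0 of 19202 genes; Plaur, Timp1 and Timp2 were the 3 members with an unadjusted p under 0.05, as were 4.59% of all these genes in the same direction. Mutant replicate 3 held the highest of the 6 values in 6 of the 9 genes. The share over all genes was not computed, so the count is not a trait of the members. Among tested genes of the 5 other lists below it was highest in 1 of 3, 1 of 2, 4 of 6, 5 of 11 and 6 of 9.

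**Figure D1:**
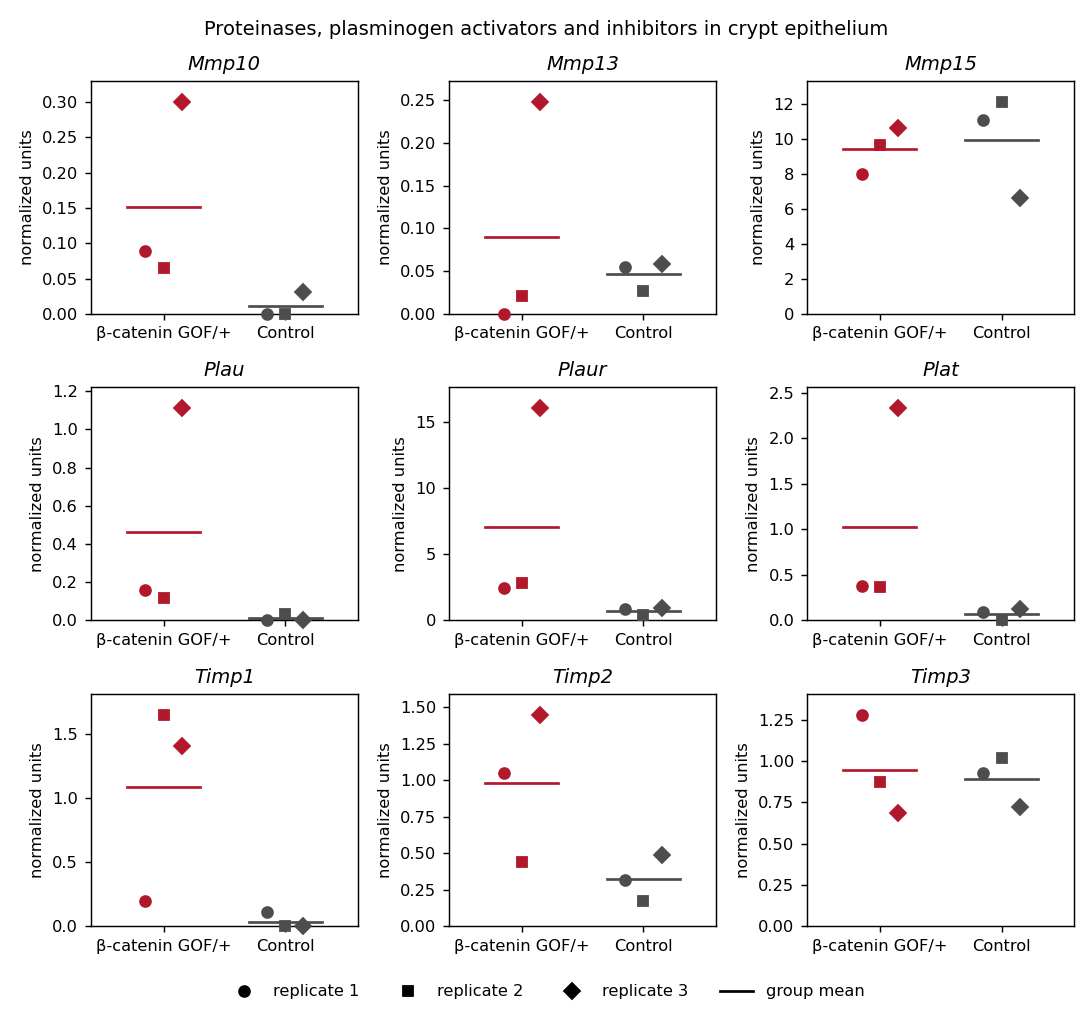
Normalized units (y axis, from 0) of each gene in the 3 β-cateninGOF/+ libraries (left) and the 3 control libraries (right); symbols mark replicates and lines the group means. Plaur, Plau, Plat and Mmp10 stood above all control libraries in every mutant library with mutant replicate 3 far above the other 2, whereas Mmp15 and Timp3 overlapped.

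In all 3 genes of the activator system the mutant libraries stood above the control libraries. Plaur, the urokinase receptor, had 2.40, 2.77 and 16.0 units in mutant replicates 1 to 3, against 0.832, 0.354 and 0.949 units in control replicates 1 to 3. These values rest on 46, 72 and 273 reads in mutant and 16, 7 and 26 reads in control libraries. Every mutant library was above every control library, and mutant replicate 3 stood 6.2 times above the mean of the other 2. Plaur differed by 1.83 ± 0.60 (SE) on the log2(value + 1) scale, which understates changes of low genes, with a 95% interval from 0.40 to 3.26. The test across all genes was not passed (adjusted p = 0.589 in limma). Its unadjusted p was under 0.05, as for 4.72% of tested genes in that direction and 3.59% in the other. Over the summed reads per unit of depth the ratio was 8.52, with an exact 95% interval of 6.32 to 11.7. Such intervals cover counting error only and not the spread between libraries. Without mutant replicate 3 the ratio was 3.54 (2.52 to 5.05) and the log2 difference 1.08 ± 0.20, with an adjusted p of 0.392 in limma without a filter. In 3 against 3 libraries the smallest p of a two-sided exact permutation test is 0.1, so no single gene can pass that test.

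Plau, which encodes urokinase, was nearly absent from control libraries. It had 0.159, 0.117 and 1.11 units in mutant libraries, from 5, 5 and 31 reads. Control libraries had 0, 0.0308 and 0 units, from 0, 1 and 0 reads. The groups did not overlap, and a control library at 0 reads allows up to 3 reads, which is 0.0952 units in control replicate 1. Together 41 mutant reads stood against 1 control read, a ratio per depth of 43.8 with an exact 95% interval of 7.43 to 1770. Without mutant replicate 3, 10 reads remained and the ratio was 14.7 (2.09 to 638).

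Plat encodes tissue-type plasminogen activator, known for clot lysis and for neural and endothelial expression. It had 0.375, 0.361 and 2.33 units in mutant libraries and 0.0861, 0 and 0.121 units in control libraries. The reads were 13, 17 and 72 in mutant and 3, 0 and 6 in control libraries. Mutant replicates 1 and 2 lay close together and above every control value, and mutant replicate 3 stood 6.35 times above their mean. The ratio of summed reads per depth was 12.1 (6.13 to 27.2), and 4.90 (2.27 to 11.7) without mutant replicate 3. In limma without a filter on low values, Plau and Plat differed by 0.47 ± 0.24 and 0.79 ± 0.35 on the log2(value + 1) scale, both with an adjusted p of 0.661.

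The inhibitors differed among themselves. Timp1, an inducible and soluble inhibitor, had 0.194, 1.65 and 1.41 units in mutant libraries, about 2, 27 and 15 reads. Control libraries had 0.109, 0 and 0 units, about 1, 0 and 0 reads. Here mutant replicates 2 and 3 were high and mutant replicate 1 lay near control replicate 1, whereas for the 3 activator genes mutant replicate 3 was the highest library and mutant replicates 1 and 2 were close together. Timp1 had the lowest p of the members without a filter, with a log2 difference of 0.93 ± 0.30 and an adjusted p of 0.656 in limma.

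Timp2, an inhibitor that is made constitutively in many tissues, had 1.05, 0.439 and 1.45 units in mutant libraries and 0.317, 0.173 and 0.487 units in control libraries. Mutant replicate 2 lay below control replicate 3, so the groups overlapped. Its 53, 30 and 65 mutant reads against 16, 9 and 35 control reads gave a ratio per depth of 2.63 (1.94 to 3.62). The log2 difference was 0.55 ± 0.21 with an adjusted p of 0.658 in limma without a filter.

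Timp3, the inhibitor bound to the extracellular matrix, did not separate the groups. It had 1.28, 0.875 and 0.686 units in mutant libraries and 0.926, 1.02 and 0.725 units in control libraries. Mutant replicate 3, the highest library for most members, was the lowest of all 6 for Timp3. The 84, 78 and 40 mutant reads against 61, 69 and 68 control reads gave a ratio of 1.09 (0.891 to 1.33) and a log2 difference of 0.03 with a 95% interval from -0.32 to 0.39. Timp3 made up 50.6, 29.6 and 19.3% of the summed units of the 3 inhibitors in mutant libraries and 68.5, 85.5 and 59.8% in control libraries. The share of Timp1 was 7.69, 55.6 and 39.8% in mutant and 8.04, 0 and 0% in control libraries. Summed, the 3 inhibitors had 2.53, 2.96 and 3.55 units in mutant libraries and 1.35, 1.19 and 1.21 units in control libraries.

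The metalloproteinases split by level. Mmp15, a membrane-anchored metalloproteinase, was the most abundant of the 9 genes in the mean over all libraries and did not separate the groups. It had 8.01, 9.64 and 10.6 units in mutant libraries and 11.1, 12.1 and 6.62 units in control libraries. Control replicate 3 was the lowest of the 6 libraries and control replicates 1 and 2 the highest. With 485 to 793 reads per mutant library and 573 to 756 per control library, counting error was small. The log2 difference was -0.04 ± 0.23 (adjusted p = 0.960 in limma) with a 95% interval from -0.59 to 0.51, so changes of up to about that size were not detectable.

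Both secreted metalloproteinases were at the limit of detection. Mmp10, a stromelysin that epithelium at wound edges is known to make, had 0.0890, 0.0655 and 0.3 units in mutant libraries, from 2, 2 and 6 reads. Control libraries had 0, 0 and 0.0311 units, from 0, 0 and 1 reads. The groups did not overlap in these values. However, the 3 reads that a control library at 0 allows are 0.133 units in control replicate 1, above mutant replicates 1 and 2. The 10 reads against 1 gave a ratio of 10.7 with an interval of 1.52 to 463. Without mutant replicate 3 the interval reached from 0.582 to 290. Mmp13, a collagenase, had 0, 0.0203 and 0.248 units in mutant libraries and 0.0550, 0.0267 and 0.0579 units in control libraries. Of its 9 mutant reads 8 came from mutant replicate 3, against 2, 1 and 3 reads in control libraries. The ratio was 1.6 (0.509 to 5.47) with all libraries and 0.245 (0.00533 to 2.02) without mutant replicate 3, where both remaining mutant values lay below all control values. The same held for 9.71% of genes averaging 0.05 to 1 unit.

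**Figure D2:**
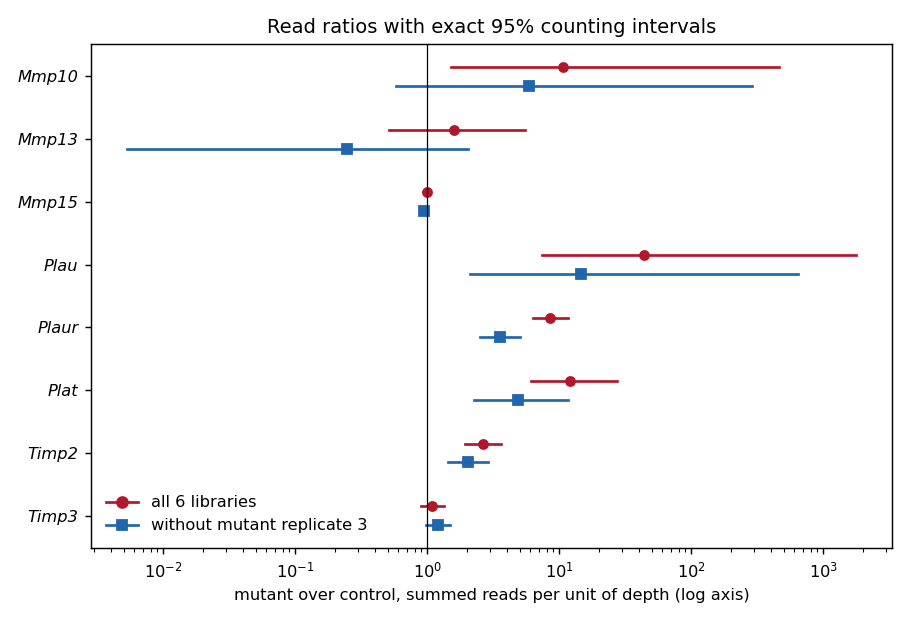
Ratio of summed reads per unit of depth, mutant over control (x axis, log scale), for the 8 members with whole reads; circles use all 6 libraries, squares leave out mutant replicate 3, and bars are exact 95% intervals for counting error only. Intervals of Plau, Plaur, Plat and Timp2 stayed above 1 in both sets, Mmp15 and Timp3 lay near 1, and Mmp13 moved to the other side of 1.

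Across control libraries the order of mean levels was Mmp15 (9.93 ± 2.91 units, SD, n = 3), Timp3 (0.890 ± 0.15), Plaur (0.711 ± 0.315), Timp2 (0.326 ± 0.157) and Plat (0.0690 ± 0.0622). Mmp13, Timp1, Mmp10 and Plau followed at 0.0465, 0.0362, 0.0104 and 0.0103 units. Values of Timp3 and Plaur overlapped, as did those of Plaur and Timp2, while Timp2 lay above Plat in every library. In mutant libraries Plaur had the second highest mean at 7.06 ± 7.76 units, and its range overlapped that of Mmp15 (9.43 ± 1.32). Timp1, Plat, Timp2 and Timp3 followed with means of 1.08, 1.02, 0.982 and 0.947 units and overlapping values. Plau, Mmp10 and Mmp13 were lowest, with means of 0.463, 0.152 and 0.0895 units.

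**Figure D3:**
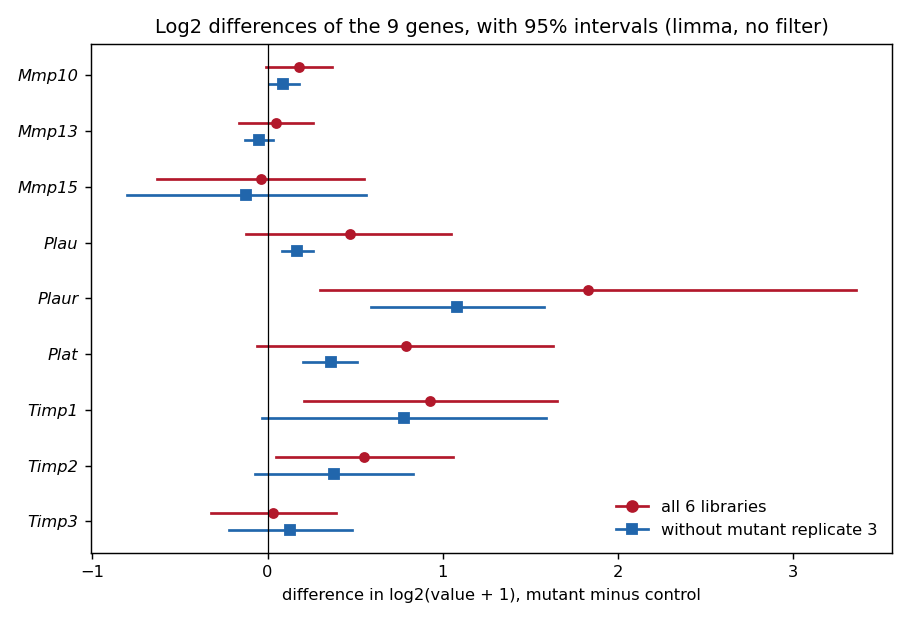
Difference in log2(value + 1), mutant minus control (x axis), of the 9 genes in limma without a filter, with 95% intervals; circles use all 6 libraries and squares leave out mutant replicate 3. Intervals of Plau, Plaur and Plat narrowed when that library was left out, while their differences shrank to 0.17, 1.08 and 0.36.

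Other cell types can bring these genes into a crypt preparation, so marker genes were read in the same libraries. The 10 epithelial markers summed to 7250, 5800 and 8630 units in mutant and 4990, 5560 and 6320 units in control libraries. All 10 were higher in the mean in mutant libraries, and in 1 the groups did not overlap. Of 14 stromal markers 13 had a higher mean in mutant libraries and in 12 the groups did not overlap, with sums of 30.8, 26.1 and 56.3 units in mutant and 11.7, 7.48 and 12.6 units in control libraries. Pdgfra was the 1 stromal marker at 0 in every control library. Of 6 neutrophil markers 5 were higher in the mean, with sums of 3.66, 3.73 and 14.8 units in mutant and 3.41, 2.49 and 3.14 units in control libraries. S100a8, S100a9 and Mpo were at 0 in every control library, but Mpo was also at 0 in mutant replicate 1 and had at most 0.0324 units. Only S100a8 and S100a9 were apart and higher, 2 of the 6. The groups overlapped for Mpo, Csf3r, Ly6g and Cxcr2, and Cxcr2 was lower in the mean (2.06 units in mutant, 2.16 in control libraries). Of 12 leukocyte markers 10 were higher in the mean and 2 did not overlap, with sums of 46.9, 44.0 and 130 units in mutant and 63.7, 35.1 and 77.1 units in control libraries. Muscle markers summed to 5.21, 3.15 and 11.1 units in mutant and 2.82, 1.98 and 3.46 units in control libraries. Of these, 6 of 6 were higher in the mean and 3 did not overlap. Endothelial markers summed to 0.605, 0.539 and 2.30 units in mutant and 1.26, 0.488 and 0.997 units in control libraries. Of these, 4 of 8 were higher in the mean and the groups of all overlapped. Beside these counts, 8.34% of genes averaging 1 unit or more were apart and higher. The share was 10.3% of those averaging 0.05 to 1 unit. Mutant replicate 3 exceeded the mean of the other 2 mutant libraries 1.98 times in stromal, 2.65 times in muscle, 2.86 times in leukocyte and 4.02 times in neutrophil and endothelial sums, against 8.03, 6.2 and 6.35 times for Plau, Plaur and Plat. The part of these cell types in the members' values was not tested. In bulk libraries fewer cells of a type and less RNA per cell cannot be told apart.

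**Figure D4:**
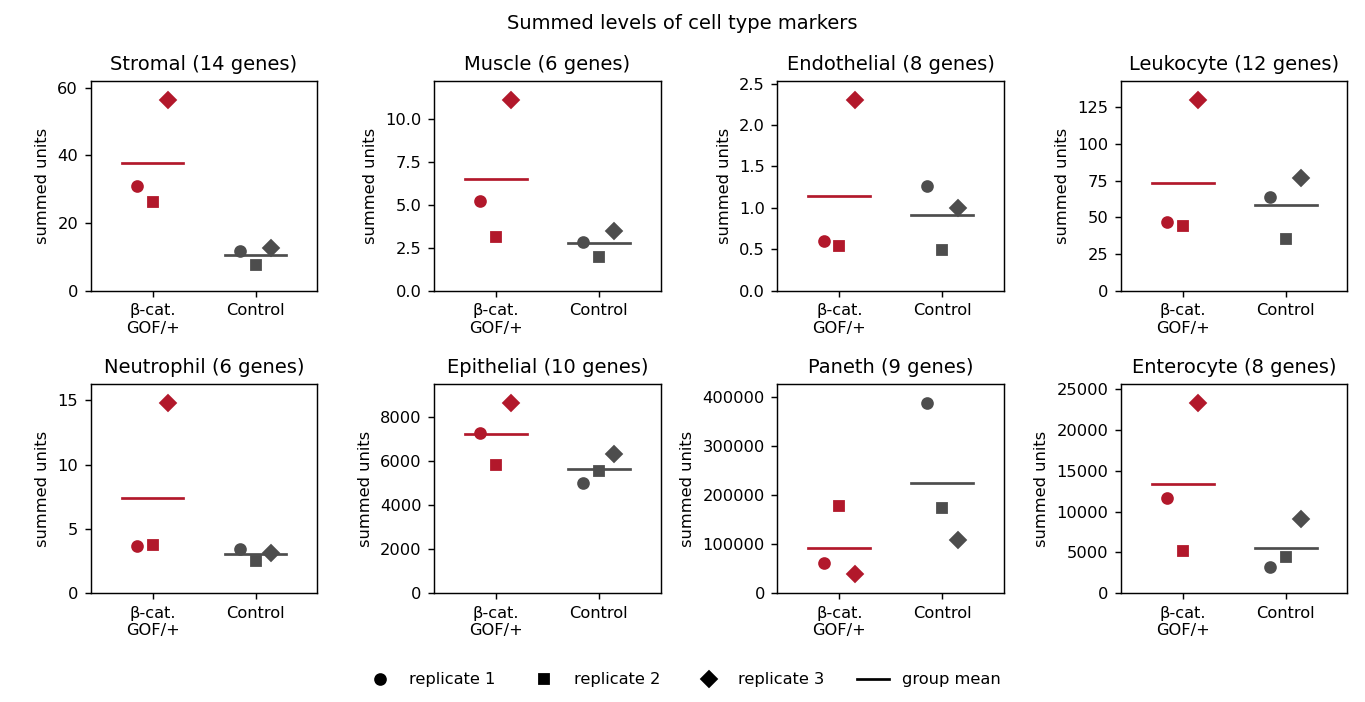
Summed normalized units (y axis, from 0) of marker genes of 8 cell types in the 3 β-cateninGOF/+ libraries (left) and the 3 control libraries (right); symbols mark replicates and lines group means. The stromal sum was 26.1 units or more in every mutant library and 12.6 units or less in every control library, and mutant replicate 3 was highest for all but the Paneth markers.

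The remaining genes of the system were read from 5 lists, and limma called 0 of their tested genes. Serpinb2, an inhibitor of urokinase named after its values were seen, had 5, 25 and 4 reads in mutant libraries and 0 in every control library. With 3 reads set for the control group, the limit for a count of 0, the ratio per depth was 12.1. That value leaves out counting error in the mutant reads and the spread between libraries, and most mutant reads came from mutant replicate 2.

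Of 18 genes of the plasminogen system, 6 were tested, 5 were higher and 3 were apart and higher, against 8.34% of all genes tested. The median log2 difference was 0.42, against -0.02 over all genes tested; it was 0.16 without mutant replicate 3 and 0.09 without a filter on low values. Anxa2 and S100a10, whose products form a plasminogen-binding complex at the cell surface, had 756 ± 384 and 718 ± 335 units in mutant and 382 ± 66.7 and 460 ± 89.5 units in control libraries (SD, n = 3 each). Eno1, a glycolytic enzyme that also binds plasminogen, had 375 ± 170 units in mutant and 174 ± 39.1 units in control libraries. In all 3 genes the groups were apart and mutant replicate 3 was highest, and the adjusted p ranged from 0.589 to 0.598 in limma. Plg, the gene of plasminogen itself, had at most 0.0374 units in any library.

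Of 20 other metalloproteinases 3 were tested, with 1 higher and 2 lower and a median log2 difference of -0.19. That median was 0.08 without a filter on low values, 0.05 without control replicate 1 and -0.43 without control replicate 3. Mmp28 had 3.61, 2.98 and 7.90 units in mutant and 1.66, 2.44 and 1.4 units in control libraries, with a log2 difference of 0.97 (adjusted p = 0.589 in limma). It was the 1 tested gene of that list whose groups did not overlap. Mmp7, the matrilysin that Paneth cells use to process defensins, was the most abundant metalloproteinase of those listed, with 419, 826 and 575 units in mutant and 1700, 612 and 519 units in control libraries. Paneth markers, of which Mmp7 is 1, were highest in control replicate 1 as well. The membrane-anchored Mmp14 had 8.60 ± 0.849 units in mutant and 9.95 ± 1.15 units in control libraries, and its groups overlapped like those of Mmp15. Mmp1a and Mmp1b were at 0 in every library.

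Of 9 other metalloproteinase inhibitors and related genes 2 were tested, with 1 higher and 1 lower. Their median log2 difference was -0.05, and 0.15 without mutant replicate 3. Tfpi2, a Kunitz-type inhibitor, had 1.67 ± 0.855 units in mutant and 1.89 ± 0.438 units in control libraries. Pcolce, which enhances procollagen processing, had 1.12 ± 0.325 units in mutant and 1.04 ± 0.204 units in control libraries, and the groups overlapped in both. Reck, a membrane-anchored inhibitor, had at most 0.0542 units. Of 12 membrane serine proteases, their inhibitors and proprotein convertases 11 were tested, with 8 higher and 3 lower and a median log2 difference of 0.19. That median was 0.15 without mutant replicate 3, 0.17 without a filter on low values and 0.16 with a pseudocount of 5. It was 0.35 without mutant replicate 2, 0.30 and 0.36 without control replicates 1 and 3, and 0.31 among genes averaging 5 units or more. St14, the epithelial protease matriptase, had 96.5, 82.8 and 162 units in mutant and 70.6, 71.8 and 82.2 units in control libraries, so its groups were apart; its inhibitor genes Spint1 and Spint2 overlapped. Furin had 22.9 ± 9.42 units in mutant and 15.2 ± 2.22 units in control libraries.

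Of 20 ADAM, ADAMTS and astacin proteases 9 were tested, with 7 higher and 2 lower and a median log2 difference of 0.22, which was 0.11 without a filter. Mep1a and Mep1b, the meprin genes of the enterocyte brush border, had 78.3 ± 63.4 and 421 ± 262 units in mutant and 23.2 ± 7.67 and 174 ± 106 units in control libraries. Their groups overlapped. Enterocyte markers summed to 11700, 5230 and 23300 units in mutant and 3190, 4410 and 9030 units in control libraries, and their part in the meprin values was not tested. Adamts15 had 9.05 ± 0.648 units in mutant and 7.64 ± 0.401 units in control libraries with no overlap (adjusted p = 0.590 in limma).

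**Figure D5:**
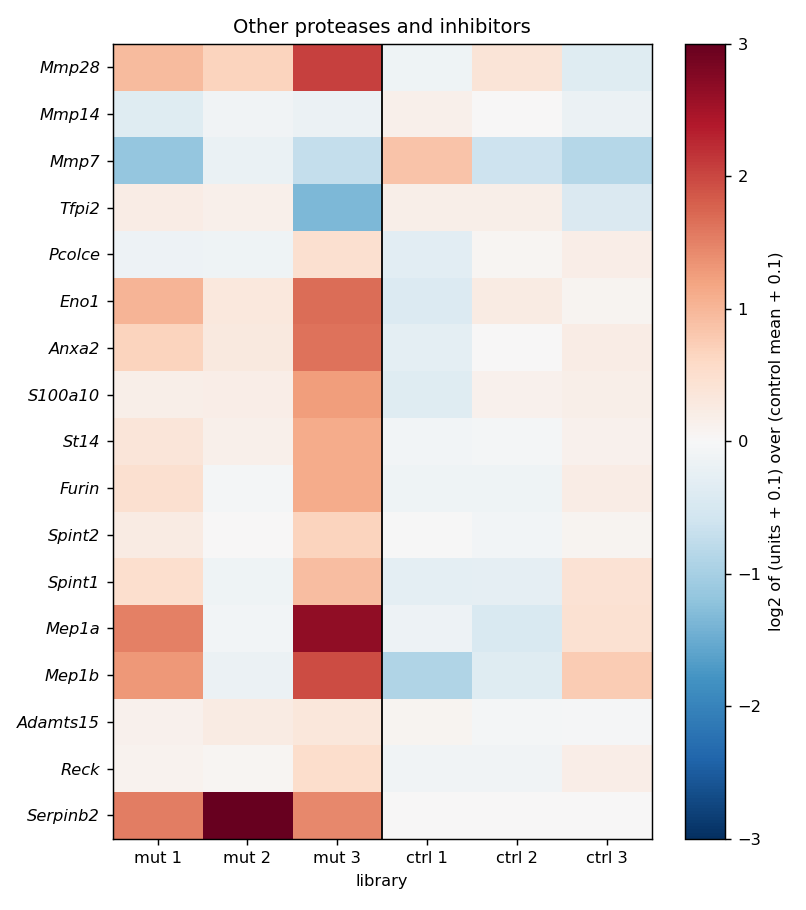
Color shows the log2 of (units + 0.1) over (control mean + 0.1) for other proteases and inhibitors (rows) in the 3 mutant and 3 control libraries (columns), with red above and blue below the control mean. Serpinb2 was high in all 3 mutant libraries, while Mep1a, Mep1b, Eno1 and Anxa2 were highest in mutant replicate 3.

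The genes most like a member were found by Pearson's r of log2(value + 1) over the 6 libraries, as a description. For Plaur these were Cdc42se1 (r = 0.9991), the actin-capping gene Capg (0.9978) and Anxa1 (0.9972). Capg had 10.6, 10 and 36.4 units in mutant and 5.84, 4.42 and 5.75 units in control libraries. 311 genes had an r over 0.95 with Plaur, and its own pattern is led by mutant replicate 3. For Mmp15 the closest were Nhlrc2 (0.9979), Arhgap35 (0.9874) and Csnk1d (0.9852). For Timp3 they were Ubr3 (0.9609), Ap1g1 (0.9578) and Spata13 (0.9562), and only 4 genes had an r over 0.95 with it.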

How the data were processed

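RNA of 6 libraries was selected for poly-A and randomly primed, per the labels' protocols. The deposited signal is a normalized abundance per gene made by the authors; the submitters' processing notes name kallisto 0.46.1, DESeq2 1.40.1 and the mm9 build without a role. The values are not counts: 0% of those above 0 are whole, and library totals ran from 645225 to 1268771 units. The columns named for an exon change were taken as the mutant group. Values were transformed to log2(value + 1), and the 11837 genes averaging 1 unit or more were tested with limma 3.58.1 (mean-variance trend, group only, Benjamini-Hochberg over all genes); the script was tested on simulated data. Reads came from steps among the low values, with a tolerance of 0.005 reads; such a step was found for 85.0% of sampled genes with a mean under 1 unit and 56.7% of the others, so no count model was run. Promoter coordinates are GRCm38.p6 and are not joined to the files. The members and lists were chosen with earlier results of these data known. Named are the members; of each other list the 3 genes with the smallest p and the 2 most abundant; Mmp7 and Reck; and the 3 genes most like the most abundant member of each role. Some genes that this rule names are not reported here. Any others were chosen after their values were seen. Python 3.11.15 and R 4.3.3 were used. 0 value columns lacked a sample.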

Additional observations from a re-analysis of the deposited data

How the results depend on the processing

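All 9 members were tested in the 3 alternatives without a filter, and 0 were called; in the others Mmp15 and Plaur were tested (Mmp15 alone at a mean of at least 5) and 0 were called. No tested gene of the 5 other lists was called under the 15 alternatives run for them. Over all genes limma called 2, with 0 higher and 2 lower. The count was 1 after upper quartile rescaling and 1 without a trend, lower in both, 0 without a filter, and 1 with a pseudocount of 5, which was higher. Array weights, whose estimation stopped before it converged, gave 27 calls, 20 higher and 7 lower. The 2 alternatives chosen after seeing the data gave 11 calls without a filter and with a pseudocount of 0.1, 7 higher and 4 lower, and 5 calls, all higher, without a filter and mutant replicate 3. Leaving out 1 library in turn gave 0 to 4. The replicate number as a block gave 0 calls and an adjusted p of 0.383 for Plaur in limma. Deviations of same-numbered libraries correlated at -0.292, 0.333 and 0.325 for replicates 1 to 3. Those of differently numbered libraries ran from -0.487 to 0.212. The values of replicates 2 and 3 were thus the highest and that of replicate 1 was negative. Whether the numbers mark pairs cannot be told from these values, and the main fit did not take them as pairs. The adjusted p of Plaur ranged from 0.127 with array weights to 0.892 without control replicate 2, and its log2 difference from 1.08 to 2.24 with 1 library left out. With 1 library left out that of Mmp15 ranged from -0.28 to 0.11 and turned to 0.06 without mutant replicate 1 and to 0.05 and 0.11 without control replicates 1 and 2; the cause was not tested. Members whose groups do not overlap numbered 5 to 7 with 1 library left out. Groups that are apart stay apart when a library is left out, so this count could not fall. The same 5 had to be higher each time, which is no sign of stability. Timp2 joined them without mutant replicate 2 or control replicate 3. Mmp13 was lower without mutant replicate 3 and Mmp15 without control replicate 3. Over genes averaging 0.05 to 1 unit, 12.2 to 19.5% were then apart and higher, with 13.2% without mutant replicate 3. For Mmp13, 9.71% of those genes were apart and lower without mutant replicate 3. For Mmp15, 15.5% of genes averaging 1 unit or more were apart and lower without control replicate 3. Filters do not enter the count of members apart. Depth limits Mmp10 and Plau, with 1 control read each, and Mmp13, with 9 mutant and 6 control reads.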
